A study of Mus musculus with 54 samples.

Results

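Round spermatids of combined mutant mice (CM, *Ctcf*+/- *Boris*-/-, named DKO in the labels) were compared with round spermatids of CTCF heterozygotes (CTCF HET, *Ctcf*+/- *Boris*+/+). The comparison holds 6 of the 54 samples of the series, the 3 CM and the 3 CTCF HET libraries among 12 round spermatid RNA-seq libraries, and they were chosen by genotype and cell type alone. Both genotypes carry 1 allele of *Ctcf*, so CTCF HET is not a wild-type control, and the groups differ by labelled genotype in *Boris* (gene symbol *Ctcfl*). Which genes differ in haploid germ cells when *Boris* is lost on top of 1 *Ctcf* allele is the question that the pair addresses. The mice were C57BL/6 of 3 months. The study names a mating of CTCF HET females with BORIS KO males as the origin of CM mice. Direct pups of that mating would be *Boris*+/-, and further crosses are not described. Round spermatids were enriched by centrifugal elutriation and sorted by flow cytometry with a DNA dye, and polyadenylated RNA was sequenced. The alleles are germline deletions, so they are not confined to round spermatids. Allele numbers given here are those of the mouse, as round spermatids are haploid. The study put 4 mice into each germ cell preparation and used 3 replicates per group. Whether each round spermatid library had a preparation of its own is not stated, so p-values measure the spread between these libraries. WT (*Ctcf*+/+ *Boris*+/+) and BORIS KO (*Ctcf*+/+ *Boris*-/-) round spermatids, 3 libraries each, served as the same loss of *Boris* with 2 *Ctcf* alleles.

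CTCF is a zinc finger protein that binds DNA and anchors chromatin loops together with the ring complex cohesin, and it is made in nearly every cell. BORIS is its paralog, with a closely similar zinc finger domain, and in healthy tissue it is made in male germ cells, where both proteins can occupy the same DNA sites. Round spermatids are the haploid cells that follow meiosis. They still transcribe, mostly genes of the acrosome, the flagellum and the packaging of sperm chromatin, before the genome is compacted with protamines and falls silent.

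Total counts per library ran from 47740650 to 87318776. Values below are CPM, a gene's counts relative to its library's total after TMM scaling over the 12 round spermatid libraries, and log2 fold changes are CM minus CTCF HET from edgeR, with the standard error. The CM libraries stood apart from each other. Between 14932 and 16670 genes had a count in CM libraries, against 18511 to 18752 in CTCF HET, although the total counts overlapped. Of 15337 genes tested, 180, 979 and 1093 had no count in CM replicates 1, 2 and 3, against 4 to 11 in the CTCF HET libraries. In CM replicate 3, 209 genes without a count had at least 100 counts in another CM library. Such cases numbered 100 in replicate 2 and 22 in replicate 1, and CTCF HET had 0. The biological coefficient of variation was 0.149 in CTCF HET and 0.740 in CM, and the other genotypes had 0.150 (BORIS KO) and 0.245 (WT). CM replicate 2 differed most, with a correlation of log2(CPM + 1) across genes of 0.900 to 0.904 with the CTCF HET libraries, against 0.989 to 0.993 for replicate 1 and 0.961 to 0.972 for replicate 3.

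The targeted genes were read first. *Ctcfl* (mm9, chromosome 2, 172919110 to 172945026, minus strand) had 2.63, 3.19 and 3.51 CPM in CTCF HET and 2.63, 1.82 and 1.11 CPM in CM replicates 1, 2 and 3. The CM libraries lay at or below the lowest CTCF HET library, and the difference was not called (log2 fold change -0.73 ± 0.43, DESeq2 adjusted p = 0.339). Reads remained on *Ctcfl* in both genotypes without *Boris*, with a mean of 2.27 CPM in BORIS KO. The deleted part of the gene is not given in the sources used here, so a count over the whole symbol says little about the deletion. *Ctcf* (chromosome 8, 108160468 to 108206822, plus strand) had 34.1, 22.4 and 25.4 CPM in CTCF HET and 177, 47.9 and 39.8 CPM in CM. All 3 CM libraries were above all CTCF HET libraries, and CM replicate 1 alone was above 100 CPM. DESeq2 called the difference (adjusted p = 0.0163), and without CM replicate 2 it did not (0.0559). WT and BORIS KO, with 2 alleles, had means of 36.8 and 27.8 CPM. *Rltpr*, which begins downstream of *Ctcf* on the same strand (108210174 to 108222078), marked the *Ctcf*+/- genotypes. It had means of 0.909 CPM in WT and 1.86 CPM in BORIS KO, and 67.8, 79.8 and 62.6 CPM in CTCF HET and 58.8, 30.1 and 33.6 CPM in CM. The level of *Rltpr* was thus high in all 6 libraries from mice with 1 *Ctcf* allele and low in all 6 from mice with 2.

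No gene was called in this comparison by edgeR's quasi-likelihood test at adjusted p < 0.05 and fold change > 2 (0 of 15337 tested, 0%), and the smallest adjusted p was 0.203. At an unadjusted p under 0.05 edgeR had 3332 genes, 1941 higher and 1391 lower in CM. The DESeq2 Wald test, the tool of the study, called 1120 genes higher (7.3% of the genes tested) and 156 lower (1.02%), of which 42 and 13 also passed an adjusted p < 0.001. With all 4 genotypes in one edgeR fit, which pools the spread of the CM libraries with that of the tighter groups, 1169 were called higher and 446 lower. Without CM replicate 1 edgeR called 1276 genes higher and 1394 lower, and without any other single library it called 0. The cause was not tested. The DESeq2 total of 1276 became 146, 215 and 163 without CTCF HET replicates 1, 2 and 3, and 3703 without CM replicate 1. Without CM replicate 2 it became 606, of which 372 were higher and 234 lower.

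Of the 1120 genes that DESeq2 called higher, 945 (84.4%) had all 3 CM libraries above all 3 CTCF HET libraries, against 14.3% of all genes tested. CM replicate 2 was the highest CM library in 1067 of them (95.3%), and CM replicate 1 the lowest in 1007. Only 311 of the 1120 (27.8%) were also called without CM replicate 2. The 156 genes called lower all had the CM libraries below CTCF HET, against 20.1% of all genes tested, and 77 of them (49.4%) were also called without CM replicate 2. Calls and overlap come from the same 6 libraries, so a high share without overlap among called genes is built in and is no further evidence. Genes called higher were scarce in CTCF HET (median 2.88 CPM, 12.6 in CM) and genes called lower were more abundant (24.1 against 10.6).

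The genes named next had the smallest edgeR p at a fold change over 2 with no overlap between the groups, or the smallest DESeq2 p. Every one of them had an edgeR adjusted p of 0.203, and DESeq2 called every one, also without CM replicate 2 except for *Xab2*. *Spo11*, whose product makes the DNA double-strand breaks that start meiotic recombination, lies on chromosome 2 beside *Ctcfl* (172803201 to 172819077, plus strand). It had 62.7, 61.5 and 63.9 CPM in CTCF HET and 23.0, 15.8 and 24.7 CPM in CM. The lowest CTCF HET library was above every CM library, and the level was 2.94-fold lower in CM (log2 fold change -1.55 ± 0.22, DESeq2 adjusted p = 5.32e-07). *Rusc2*, an adaptor of vesicle traffic, had 57.4, 35.2 and 51.7 CPM in CTCF HET and 15.2, 10.5 and 13.6 CPM in CM, a 3.64-fold lower level (DESeq2 adjusted p = 9.44e-08). *Gm4871* had 39.0, 42.4 and 39.9 CPM and 13.7, 13.6 and 15.1 CPM, with little spread in either group (-1.5 ± 0.19, DESeq2 adjusted p = 1.99e-09). *Rin2*, an exchange factor for the endosomal GTPase Rab5, had 5.74, 7.05 and 5.23 CPM in CTCF HET and 1.31, 1.38 and 1.53 CPM in CM. *Lgals3bp*, a secreted galectin ligand, had 4.87, 4.41 and 4.62 CPM and 0.954, 0.916 and 1.24 CPM. Both were over 4-fold lower in CM, and their groups were far from overlapping. *Abhd4*, a lipase of N-acyl phospholipids, had 193, 166 and 184 CPM in CTCF HET and 96.2, 76.7 and 61.5 CPM in CM. *Nav2*, a cytoskeletal guidance protein, had 79.7, 62.5 and 74 CPM and 26.7, 16.2 and 32.0 CPM. In the same direction lay *Clasrp* and *Xab2*, which take part in splicing (-1.39 ± 0.24 and -1.07 ± 0.20), the dynactin subunit gene *Dctn6* (-1.33 ± 0.23), *Gm16387* (-1.34 ± 0.24) and *0610040B10Rik* (-1.56 ± 0.30).

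Genes higher in CM included *Sycp1*, which codes for the transverse filament of the synaptonemal complex that holds paired chromosomes together in meiosis. It had 184, 119 and 200 CPM in CTCF HET and 497, 758 and 953 CPM in CM, a 4.43-fold higher level with no overlap (2.15 ± 0.31, DESeq2 adjusted p = 4.13e-08). *2010011I20Rik* had 1.83, 1.97 and 1.59 CPM in CTCF HET and 12.1, 8.78 and 11.8 CPM in CM, and had the smallest DESeq2 adjusted p of the comparison (3.24e-14). This gene lies on chromosome 2 (172171065 to 172181249), as do *Spo11* and *Ctcfl*. *B3galtl*, a glucosyltransferase that extends O-linked fucose, had 1.42, 3.30 and 1.01 CPM and 12, 10.2 and 14.7 CPM. *Csmd1*, a complement-regulating membrane protein, had 2.37, 2.00 and 2.57 CPM and 11.4, 7.40 and 11.7 CPM. *Dnahc11*, an axonemal dynein heavy chain, had 0.420, 0.265 and 0.402 CPM and 2.50, 2.89 and 3.5 CPM. These 4 were low in CTCF HET and several-fold higher in each CM library, CM replicate 2 included. In the order named, their means were 5.16, 4.32, 6.54 and 0.886 CPM in WT and 15.1, 11.4, 10.7 and 4.55 CPM in BORIS KO. For *Csmd1*, WT replicates 2 and 3 had 9.64 and 8.03 CPM, within the range of the CM libraries, and WT replicate 1 had 1.95 CPM. RNA and DNA maintenance genes had moderate differences at higher levels. *Zfp326*, which links transcription with splicing, had 53.9, 34.2 and 54.7 CPM in CTCF HET and 99.5, 167 and 148 CPM in CM. *Hnrnpc*, which binds nascent transcripts, had 130, 93.7 and 110 CPM and 231, 538 and 332 CPM. *Fancd2*, of the Fanconi anaemia repair pathway, had 88.2, 66.0 and 70.5 CPM and 129, 178 and 164 CPM. In all 3 the groups were apart, with *Fancd2* nearest to the fold threshold (1.08 ± 0.20). *Hmgn5*, a nucleosome-binding protein gene, spread more among CM libraries (1.57, 1.51 and 1.34 CPM against 3.98, 27.9 and 12.9 CPM), and *Spock3*, *1110067D22Rik*, *Gm6455* and *2810428I15Rik* were higher in CM by 2.45, 3.02, 2.30 and 1.78 on the log2 scale.

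**Figure D1:**
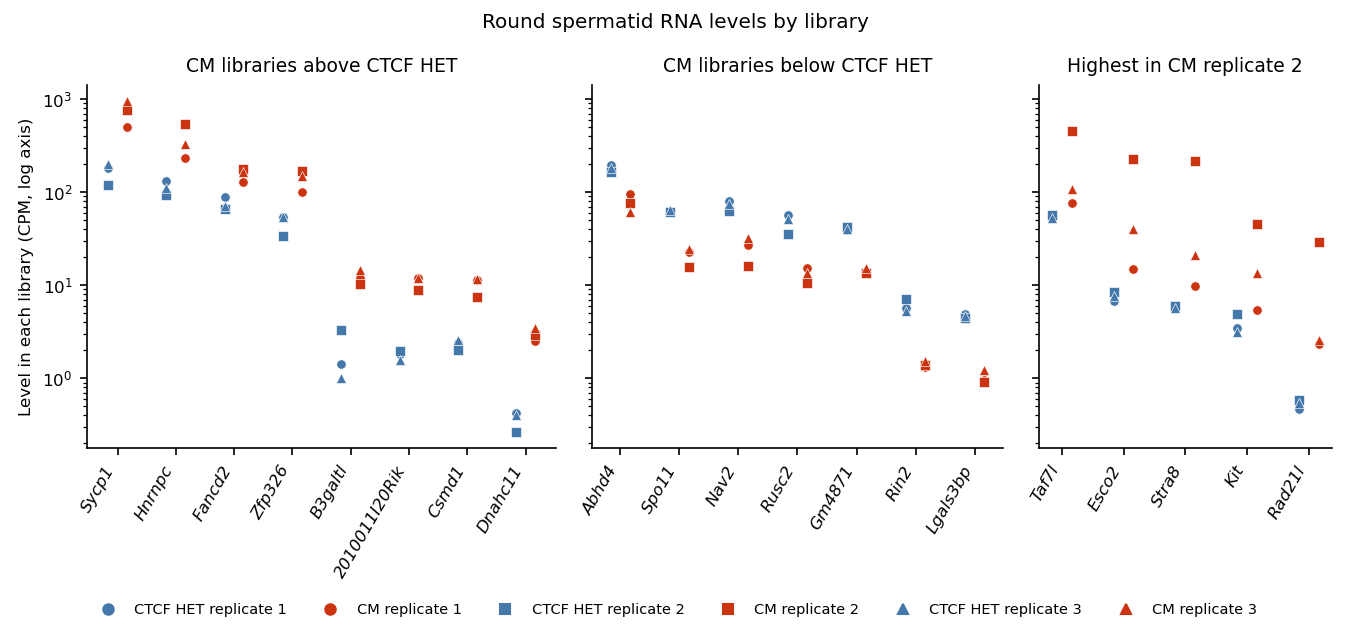
Level of 20 genes in each round spermatid library (CPM, log axis), with CTCF HET in blue, CM in red and 1 symbol per replicate number. The CM points lie wholly above CTCF HET in the left panel and wholly below in the middle panel, and in the right panel CM replicate 2 (squares) is far above the other CM libraries, for example 217 CPM for *Stra8* against 9.90 and 21.1 CPM.

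A different pattern, in which CM replicate 2 was far above the other libraries, held for several genes of spermatogonia and of early meiosis, and for genes of other kinds named below. *Stra8*, which germ cells switch on in response to retinoic acid when they enter meiosis, had 5.92, 5.92 and 5.74 CPM in CTCF HET and 9.90, 217 and 21.1 CPM in CM. *Kit*, the receptor of differentiating spermatogonia, had 3.46, 4.86 and 3.15 CPM and 5.36, 45.0 and 13.4 CPM. *Esco2*, an acetyltransferase of cohesin, had 6.83, 8.42 and 7.57 CPM and 14.9, 227 and 40 CPM. In each case all CM libraries were above CTCF HET and replicate 2 lay at least 3 times above the next. *Rad21l*, a meiotic cohesin subunit, showed it most (0.470, 0.583 and 0.536 CPM against 2.31, 29.1 and 2.58 CPM), and *Crabp1*, which binds retinoic acid, also did (1.11, 2.19 and 1.30 CPM against 3.09, 24.5 and 6.37 CPM). *Taf7l*, a germ cell subunit of the basal factor TFIID, had 53.7, 56.7 and 52.9 CPM in CTCF HET and 77.4, 451 and 108 CPM in CM. DESeq2 called *Stra8* (adjusted p = 0.0177, 0.00293 without CM replicate 2), *Kit* (0.00639, 0.0398), *Esco2* (0.0112, 0.00027), *Crabp1* (0.0034, 0.0223) and *Taf7l* (0.0113, 0.00508, where its fold change was under 2), and edgeR had an adjusted p of 0.203 for each.

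Gene lists chosen for this tissue were then described by their counts and by the median log2 fold change, beside the same over all 15337 genes tested. Of those, 14.3% had all CM libraries above CTCF HET and 20.1% below, DESeq2 called 7.3% higher and 1.02% lower, and the median was -0.02. Without CM replicate 2 DESeq2 called 362 of the 15337 higher and 228 lower. In bulk RNA, fewer cells of a type and less RNA per cell cannot be told apart. All 30 members of a list of round spermatid genes had a log2 fold change below 0 (median -0.51, -0.43 without CM replicate 2), 13 of 30 (43.3%, against 20.1% of all genes) had all CM libraries below CTCF HET, and DESeq2 called 0 of them (edgeR 0) and 3 lower without CM replicate 2. The summed level of the list was 4896 to 5245 CPM in CTCF HET and 4404, 2721 and 2901 CPM in CM replicates 1, 2 and 3, so these markers were plain in all 6 libraries and their sum was lower in each CM library than in any CTCF HET library. *Tcp11*, needed for sperm motility, had 928, 1165 and 916 CPM in CTCF HET and 763, 319 and 492 CPM in CM. The actin-like genes *Actl7b* (329, 400 and 307 CPM against 267, 114 and 138 CPM) and *Actl7a* (165, 164 and 158 CPM against 129, 56.7 and 54.6 CPM) and the mitochondrial quality gene *Spata18* (92.6, 89.1 and 94.8 CPM against 77.1, 49.9 and 50.2 CPM) shared this order. In these 4 genes CM replicate 1 was closest to CTCF HET and the other CM libraries were much lower.

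The products that build the sperm tail, head and nucleus were described in the same way. Of 43 flagellum and motility genes, 36 had a log2 fold change below 0, 16 (37.2%, against 20.1% of all genes) had all CM libraries below CTCF HET and 0 above, and DESeq2 called 0 (edgeR 0). The median was -0.43, and -0.16 without CM replicate 2. *Catsper1*, the pore of the sperm calcium channel, had 202, 201 and 209 CPM in CTCF HET and 164, 86.0 and 123 CPM in CM. *Tekt1*, a filament protein of the axoneme, had 480, 550 and 524 CPM and 414, 236 and 326 CPM. Among 29 acrosome and fusion genes, 9 (31.0%) lay below and 1 above with no overlap (median -0.25, -0.03 without CM replicate 2). *Dkkl1*, an acrosomal protein gene, had 597, 721 and 614 CPM in CTCF HET and 473, 196 and 231 CPM in CM and was the only one that DESeq2 called (-1.09 ± 0.34, adjusted p = 0.0287). *Acr*, the protease acrosin, had 533, 573 and 534 CPM and 402, 338 and 387 CPM. The one with CM above CTCF HET was *Gopc*, of the Golgi, with 38.1, 32.2 and 38.2 CPM and 54.1, 70.8 and 45.8 CPM. None of 13 protamine, transition protein and histone genes was called, 4 (30.8%) lay below with no overlap, and the median was -0.68. Without CM replicate 2 the median was -0.98 and DESeq2 called 4 of the 13 lower. *Tnp2*, a transition protein that precedes protamines, had 55.2, 65.7 and 51.0 CPM and 31.7, 42.9 and 12.2 CPM. The histone variant gene *H2afx* had 10.5, 15.5 and 8.53 CPM and 6.57, 7.31 and 3.6 CPM. All 18 testis serine protease genes had a log2 fold change below 0 and 9 (50.0%) lay below with no overlap (median -0.55, -0.53 without CM replicate 2, where DESeq2 called 2 lower), with *Prss39* at 544, 620 and 588 CPM against 403, 249 and 320 CPM.

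Regulators of the post-meiotic program were described next. Of 19 spermatid transcription regulators, 4 (21.1%, against 20.1% of all genes) lay below and 1 (5.26%, against 14.3%) above with no overlap (median -0.10), and DESeq2 called 1, *Taf7l*, higher. *Rfx2*, a factor of cilium and flagellum genes, had 517, 614 and 490 CPM in CTCF HET and 395, 189 and 296 CPM in CM, and *Sox30* had 341, 286 and 359 CPM and 279, 180 and 227 CPM. In the list of Piwi, Tudor and germ granule genes, 8 of 22 (36.4%) lay below and 4 (18.2%) above with no overlap. *Kif17*, a motor protein gene, was called lower by DESeq2 (192, 232 and 185 CPM against 147, 50.6 and 66.6 CPM, adjusted p = 0.032). *Ybx2*, which stores messages for later translation, had 1972, 2386 and 1832 CPM in CTCF HET and 1445, 997 and 1176 CPM in CM, and *Gtsf1l*, of the Piwi pathway family, had 106, 114 and 114 CPM and 79.8, 48.8 and 35.5 CPM. For these 2 the groups did not overlap, and DESeq2 called neither, as its fold changes were under 2.

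Spermatocyte and cohesin genes leaned the other way. Of 28 spermatocyte and meiosis genes tested, 12 (42.9%, against 14.3% of all genes) lay above and 4 (14.3%, against 20.1%) below with no overlap. DESeq2 called 7 higher (25%, against 7.3%) and 1 lower, the lower one being *Spo11*. The median was 0.80, and 0.54 without CM replicate 2, where DESeq2 called 6 higher and 1 lower. The summed level of the list was 3768 to 4870 CPM in CTCF HET and 5400, 6390 and 7185 CPM in CM. *Sycp3*, the axial element of the synaptonemal complex, had 96.2, 68.3 and 102 CPM in CTCF HET and 143, 281 and 198 CPM in CM (DESeq2 adjusted p = 0.004). *Smc1b*, the meiotic cohesin subunit, had 1484, 972 and 1471 CPM and 1671, 1827 and 2199 CPM, with no overlap and no call (0.55 ± 0.24). Of 22 cohesin and CTCF partner genes, 11 (50.0%) lay above and 3 (13.6%) below with no overlap, and DESeq2 called 4 higher (18.2%) and 0 lower (median 0.57, 0.39 without CM replicate 2, with 3 called). *Mau2*, which loads cohesin together with Nipbl, was among the lower ones, with 33.7, 43.1 and 33.0 CPM in CTCF HET and 23.0, 16.2 and 16.8 CPM in CM.

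Markers of other cells had their highest sums in CM replicate 2 for the spermatogonial, stroma and vessel, Sertoli and Leydig lists, and the leukocyte sum was lowest there. The summed level of 24 spermatogonial genes was 58.8 to 72.8 CPM in CTCF HET and 95.1, 514 and 116 CPM in CM replicates 1, 2 and 3. Of 20 tested, 7 (35%) lay above and 1 (5.0%) below with no overlap and DESeq2 called 6 higher (30.0%), 4 of them also without CM replicate 2 (median 1.51, then 0.69). Of its stem cell markers, *Nanos2* had 4, 0 and 0 counts in CM, *Neurog3* had none in any CM library, and *Gfra1* had 3.30, 1.45 and 2.37 CPM against 3.8, 3.52 and 3.53 CPM in CTCF HET. A list of 23 stroma and vessel genes summed to 36.3 to 42.6 CPM in CTCF HET and 39.6, 175 and 50.5 CPM in CM, mostly from *Fn1*, fibronectin (14, 19.1 and 13.7 CPM against 18.1, 159 and 27.7 CPM). *Fn1* was the only one of 19 that DESeq2 called. The 19 leukocyte genes found in the table summed to 72.8 to 79.4 CPM in CTCF HET and 77.1, 33.3 and 56.8 CPM in CM. *Aif1* made up most of it (61.7, 66.5 and 58.5 CPM against 55.3, 22.6 and 33.9 CPM), and *C1qa* and *Tyrobp* had no count in any of the 6 libraries. The 12 Leydig cell genes summed to 23.4 to 27.0 CPM and 19.9 to 32.6 CPM, and *Insl3* and *Lhcgr* had no count in any of the 6. Of 19 Sertoli cell genes, with sums of 30.4 to 36.6 CPM in CTCF HET and 38.3, 74.7 and 38.3 CPM in CM, *Amh* and *Fshr* had no count in any CM library. *Ctsl*, cathepsin L, made up most of the Sertoli sum of CM replicate 2 (3.5, 3.69 and 3.33 CPM against 4.30, 63.4 and 15.9 CPM). *Wt1*, a transcription factor of Sertoli cells, was scarce but higher in every CM library (0.124, 0.0927 and 0.067 CPM against 0.593, 0.568 and 0.489 CPM). Of the 10 Sertoli genes tested, 3 lay above and 1 below with no overlap, and the median of 0.26 became 0.72 without CM replicate 2, where 5 lay above. DESeq2 called 1 of the 10 higher, and 3 without CM replicate 2. The 7 erythroid genes summed to 1.03 to 1.27 CPM and 1.19 to 1.65 CPM. The part of other cells in the higher spermatogonial and spermatocyte levels of CM was not tested.

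**Figure D2:**
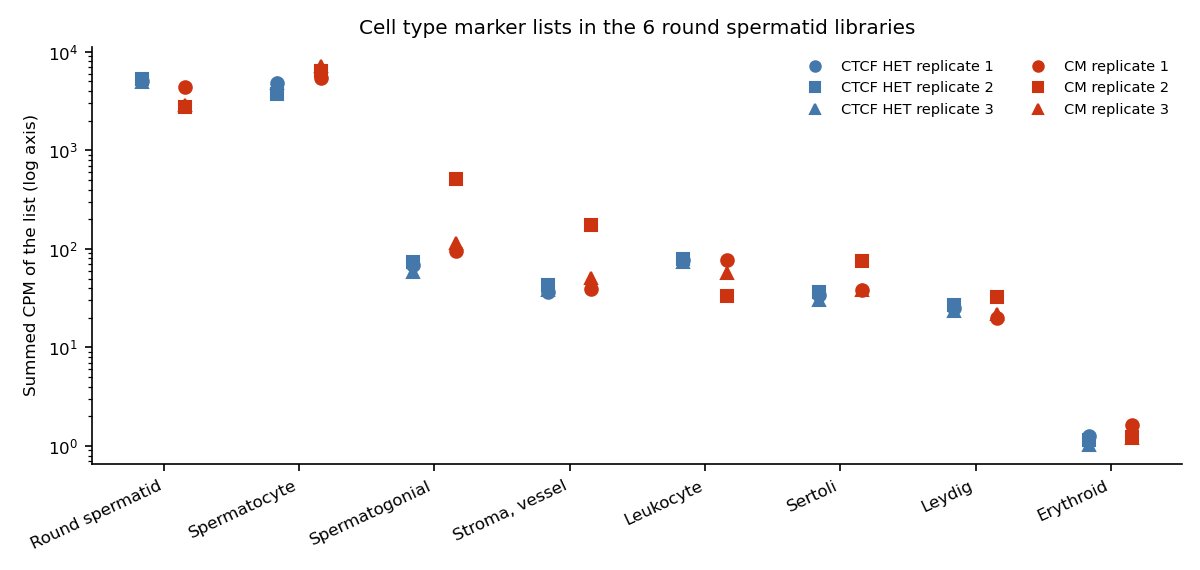
Summed level of 8 cell type marker lists in each round spermatid library (CPM, log axis), with CTCF HET in blue, CM in red and 1 symbol per replicate number. Spermatogonial markers reach 514 CPM and stroma and vessel markers 175 CPM in CM replicate 2 (red squares), above every other library, while the round spermatid sum is lowest in CM replicates 2 and 3.

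The remaining lists are read against the 7.3% of all genes that DESeq2 called higher. In the apoptosis and p53 list, DESeq2 called 5 of 27 higher (18.5%) and 1 of them without CM replicate 2 (median 0.39, then 0.11). The p53 target *Trp53inp1* was that 1, with 6.90, 5.23 and 6.12 CPM in CTCF HET and 10.3, 48.1 and 15.2 CPM in CM. *Apaf1*, the scaffold of the apoptosome, had 0.915, 1.75 and 1.18 CPM and 2.40, 20.0 and 3.86 CPM, and *Ccng1* had 3.8, 4.40 and 4.22 CPM and 4.86, 32.5 and 12.5 CPM. Both were called with all 6 libraries and not without CM replicate 2. Imprinted genes had 5 of 20 called higher (25%) and 0 without CM replicate 2 (median 0.72, then 0.49), among them the growth factor gene *Igf2* (6.44, 4.74 and 4.74 CPM against 8.25, 38 and 10.1 CPM), *Nnat* and *Peg10*. *Insig1*, a sensor of cholesterol supply, was the only one of 31 lipid synthesis genes called (3.23%, with 1.30, 2.20 and 1.30 CPM against 3.38, 35 and 8.61 CPM). Of 24 stress response genes the chaperone *Hspa8* was the only one called (4.17%, with 23.5, 28.7 and 25.6 CPM against 35.1, 170 and 57.4 CPM). Sex chromosome genes of spermatids had 4 of 20 called higher (20.0%), and without CM replicate 2 it was 0, with a median of 0.49 that became 0.00. Proteasome genes had 0 of 34 called and a median of -0.05, and split between *Psmb1*, of the core (35.9, 30.5 and 37.0 CPM against 43.4, 76.7 and 70.1 CPM), and *Psmd3*, of the lid (56.5, 73.9 and 54.4 CPM against 43.5, 30.9 and 32.4 CPM). Of 8 genes that the study singled out, a list partly chosen on these mice and so not independent evidence, DESeq2 called *Kit* alone. The fatty acid desaturase gene *Fads1* had 2.25, 3.05 and 2.17 CPM in CTCF HET and 2.41, 16.1 and 2.28 CPM in CM, and its log2 fold change of 1.5 became -0.042 without CM replicate 2. For *Ankrd52* the change was from 0.50 to -1.14. *Fads2* had 2.91, 3.85 and 3.31 CPM and 4.27, 21.6 and 4.90 CPM, *Mfi2* had 19, 17.5 and 14.3 CPM and 11.5, 6.63 and 10.5 CPM, and *Fert2* had 76.1, 77.8 and 82.7 CPM and 62.7, 63.2 and 67.5 CPM. *Prss50* and *Gal3st1* were at most 2.08 CPM throughout.

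**Figure D3:**
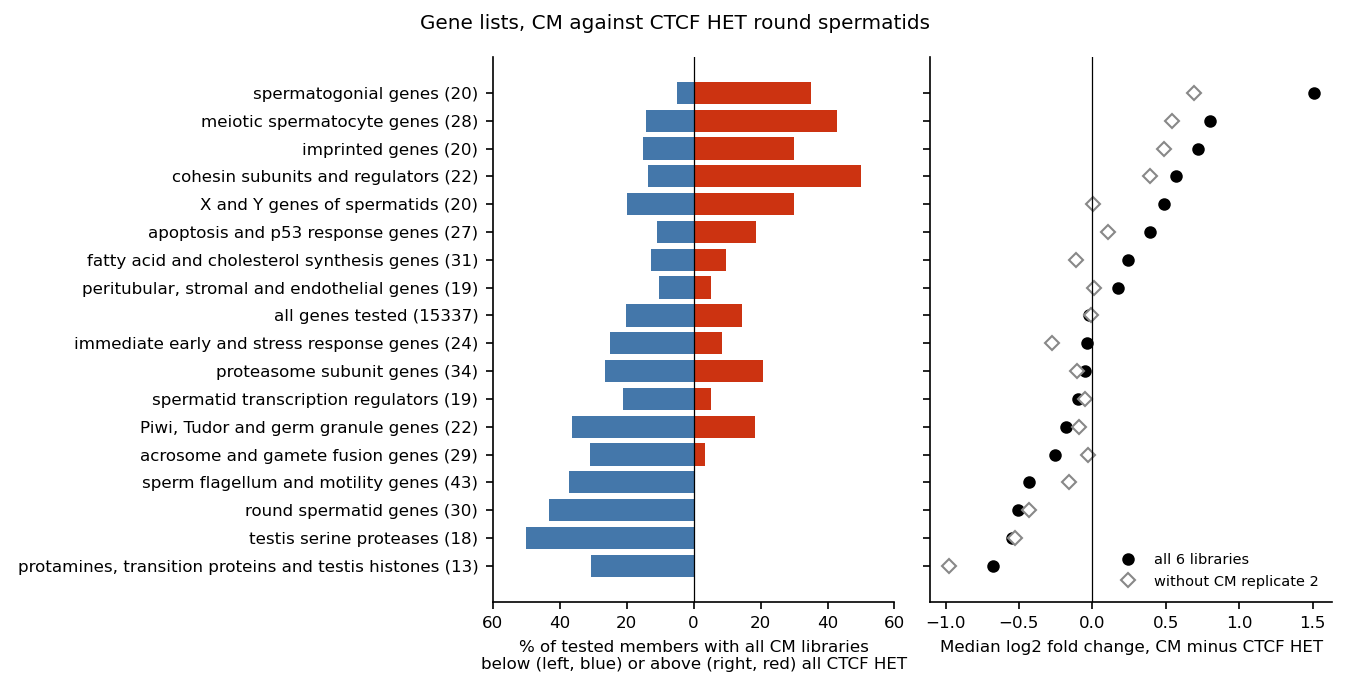
Left, percent of the tested members of each gene list (number tested in brackets) with all CM libraries below (blue) or above (red) all CTCF HET libraries. Right, the median log2 fold change, CM minus CTCF HET, with all 6 libraries (black) and without CM replicate 2 (open diamonds). The protamine, serine protease, round spermatid and flagellum lists lie at the negative end with medians of -0.68 to -0.43, the spermatogonial list at the positive end with 1.51, and that point moves to 0.69 without CM replicate 2.

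The same lean was seen over all genes when they were divided by the stage at which WT cells hold most of their RNA. Genes were classed by the log2 ratio of WT spermatocytes (2 libraries) over WT round spermatids (3 libraries), which shares no library with the comparison. Of 612 genes with a ratio under -4, those most skewed to round spermatids, 27.0% had all CM libraries below CTCF HET and 8.01% above (median log2 fold change -0.22, -0.09 without CM replicate 2). Of 727 genes with a ratio from 2 to 4, 10.0% lay below and 29.0% above (0.35, then 0.15). The classes between ran from 18.2 to 21.7% below and 10.6 to 17.0% above. The 47 genes with a ratio over 4 had 6.38% below and 19.1% above. DESeq2 called 19 of the 612 higher (3.1%) and 8 lower (1.31%), against 7.3% and 1.02% of all genes tested. It called 99 of the 727 higher (13.6%) and 2 lower (0.275%). Not every class followed this order. The 1510 genes with a ratio from -2 to -1 had 11.9% called higher, and the 47 over 4 had 6.38%. Without CM replicate 2, 76 of the 1510 and 35 of the 727 were called higher.

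**Figure D4:**
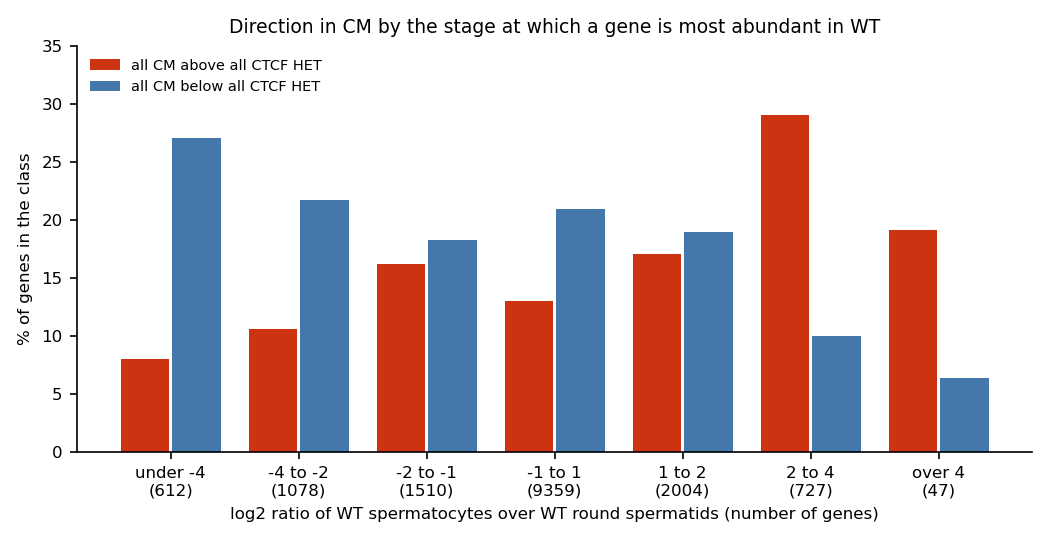
Percent of genes with all CM libraries above (red) or below (blue) all CTCF HET libraries, in classes of the log2 ratio of WT spermatocytes over WT round spermatids, with the number of genes in brackets. The blue bar is higher at the round spermatid end (27.0 against 8.01%) and the red bar is higher from 2 to 4 (29.0 against 10.0%).

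To see which of these genes carry the 2 factors, genes with 1 entry in the mm9 annotation were classed by deposited WT testis peaks within 1 kb of a transcript start. Of 14633 genes, DESeq2 called 7.51% higher. The share was 14.1% of 587 genes with a BORIS peak alone, 8.53% of 2028 with overlapping CTCF and BORIS peaks, 6.38% of 2867 with a CTCF peak alone and 7.14% of 9056 with neither. Without CM replicate 2 the shares were 3.41% with BORIS alone and 2.36% of all. Genes called lower were 0.905 to 1.53% of each of these classes. The median log2 fold change was -0.11 for 1650 genes whose CTCF peak also overlapped a peak of CM testis and 0.05 for 3340 whose peak did not, and without CM replicate 2 they were -0.09 and -0.01, so the second changed sign. The peaks come from germ cell preparations of whole testis with 1 list per antibody, so they are not those of round spermatids, and the shares are a description.

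Windows of 120 bases around the BORIS summit are shown for 6 of the genes described above, since they are the DNA that BORIS occupied in WT testis. They are read from mm9 on the strand of each gene, and capitals mark a CTCF core, which here means AGAGGGC, its variant AGATGGC, the variant AGGGGGC or the variant AGGTGGC, sought on both strands. Such a core was in 61.9% of the 7652 BORIS windows of this length, 57.4% of the 34625 WT CTCF windows and 16.3% of windows at the starts of the 14633 genes. The *Rusc2* window (chr4:43394842-43394961) and the *B3galtl* window (chr5:150480728-150480847) lie at the gene starts, and the *Kit* window (chr5:75971769-75971888) lies 887 bases downstream of its start.
Rusc2: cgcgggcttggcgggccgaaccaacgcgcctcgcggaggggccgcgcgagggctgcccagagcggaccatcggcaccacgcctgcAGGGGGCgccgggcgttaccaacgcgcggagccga
B3galtl: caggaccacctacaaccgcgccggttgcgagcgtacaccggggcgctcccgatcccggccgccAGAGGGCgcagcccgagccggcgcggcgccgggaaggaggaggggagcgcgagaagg
Kit: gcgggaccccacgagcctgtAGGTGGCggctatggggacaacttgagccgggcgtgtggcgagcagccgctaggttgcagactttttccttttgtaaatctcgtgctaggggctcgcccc
Spo11: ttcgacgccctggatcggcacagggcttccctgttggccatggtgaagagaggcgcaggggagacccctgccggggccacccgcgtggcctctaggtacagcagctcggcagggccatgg
Zfp326: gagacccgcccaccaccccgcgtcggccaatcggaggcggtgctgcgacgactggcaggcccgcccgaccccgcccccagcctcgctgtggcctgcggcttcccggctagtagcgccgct
Fancd2: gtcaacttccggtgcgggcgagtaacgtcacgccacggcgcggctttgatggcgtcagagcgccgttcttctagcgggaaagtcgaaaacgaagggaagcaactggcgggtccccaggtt
The *Spo11* window (chr2:172805431-172805550) lies 2289 bases downstream of the first annotated start, beside the start of a shorter transcript. The *Zfp326* (chr5:106305479-106305598) and *Fancd2* (chr6:113481626-113481745) windows, at starts with a BORIS peak alone, and the *Spo11* window hold none of the core letters. *Rusc2*, *Kit* and *Spo11* had a WT CTCF peak that overlapped none in CM, and the CTCF peak of *B3galtl* was kept. The 2 genes with a core at the start thus went in opposite directions in CM, *Rusc2* lower and *B3galtl* higher.

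Whether the loss of *Boris* differed with 1 and with 2 *Ctcf* alleles was tested by the contrast of CM minus CTCF HET against BORIS KO minus WT, which share no library. edgeR called 2549 of 16200 genes higher (15.7%) and 2564 lower (15.8%) with 1 *Ctcf* allele. This fit pools the spread of all 4 genotypes, although the biological coefficient of variation was 0.740 in CM and 0.149 to 0.245 in the others. Its counts and p-values therefore take the CM libraries to vary less than they did. Among the 1120 genes that DESeq2 called higher in CM, 791 were called in that direction in the contrast, and 137 of the 156 called lower, which is not independent since the contrast contains the same difference. The 28 spermatocyte genes had a median of 0.80 in CM minus CTCF HET and -0.98 in BORIS KO minus WT. For the 30 round spermatid genes these medians were -0.51 and -0.07. Of the spermatocyte genes, 17 were called higher in the contrast and 1 lower, and of the round spermatid genes 1 was called higher and 9 lower. Other spermatid lists did not share that direction, with 7 of 43 flagellum genes called higher and 7 lower, 5 of 29 acrosome genes higher and 4 lower, and 5 of 19 spermatid transcription regulators higher and 1 lower. Over all genes by stage, the 612 most skewed to round spermatids had 186 called higher and 64 lower (median difference 0.49), and the 1078 with a ratio from -4 to -2 had 296 and 125 (0.36). The 727 with a ratio from 2 to 4 had 152 and 115, and the 47 over 4 had 8 and 10. The WT round spermatid libraries enter both the stage ratio and the contrast, so these counts are a description. *Zranb2*, a splicing regulator, had 547, 327 and 488 CPM in CTCF HET and 682, 828 and 1170 CPM in CM, and 761, 917 and 984 CPM in WT and 121, 119 and 126 CPM in BORIS KO. *Rpf2*, which assembles ribosomes, had 71.2, 48.0 and 70.8 CPM and 101, 125 and 125 CPM, against 129, 144 and 159 CPM in WT and 19.6, 20.0 and 24.7 CPM in BORIS KO. Both genes were several-fold lower in BORIS KO than in WT and higher in every CM library than in CTCF HET. The difference of the losses was 3.84 ± 0.32 for *Zranb2* (edgeR adjusted p = 0.000108) and 3.63 ± 0.26 for *Rpf2* (9.21e-05), and *Hnrnpr*, *Snx4*, *Zfp326*, *Hnrnpc*, *Fancd2*, *Sycp1* and *Smc1b* had the same signs, with differences of 2.39 to 3.92. In the other direction the ribosomal protein gene *Rpl13* had 20.3, 28.5 and 18.4 CPM in CTCF HET and 17.9, 10.0 and 12.4 CPM in CM, and 18.1, 13.8 and 14.9 CPM in WT and 90.0, 80.9 and 69.5 CPM in BORIS KO (difference -3.10 ± 0.34, adjusted p = 0.000225). *H2afx*, *Fam108a*, *Rpl24*, *2610301G19Rik* and *1700037H04Rik* followed it, higher in BORIS KO than in WT by 1.28 to 2.24 on the log2 scale and at -0.97 to -0.62 in CM minus CTCF HET.

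Some genes had the same direction in the 2 backgrounds. *Spo11* was lower in BORIS KO than in WT by 2.44 on the log2 scale (mean 63.9 CPM in WT and 11.8 CPM in BORIS KO, edgeR adjusted p = 5.41e-05), and the difference from CM minus CTCF HET, 0.87 ± 0.24, stayed under the fold threshold (adjusted p = 0.015). For *Rin2* the difference was -0.21 ± 0.73, with -1.88 in BORIS KO and -2.08 in CM. *B3galtl* (4.46, 4.26 and 4.24 CPM in WT and 13.6, 13.2 and 7.44 CPM in BORIS KO, difference 1.27 ± 0.54, adjusted p = 0.084) and *Dnahc11* (difference 0.70 ± 0.98, adjusted p = 0.62) were higher in both. *2010011I20Rik* was higher in both and more so with 1 allele (1.55 and 2.61, difference 1.05 ± 0.29, adjusted p = 0.0139). *Rusc2*, *Gm4871*, *Nav2* and *0610040B10Rik* had log2 fold changes of -0.22 to -0.07 in BORIS KO, and their differences were called (-1.78 to -1.30).

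**Figure D5:**
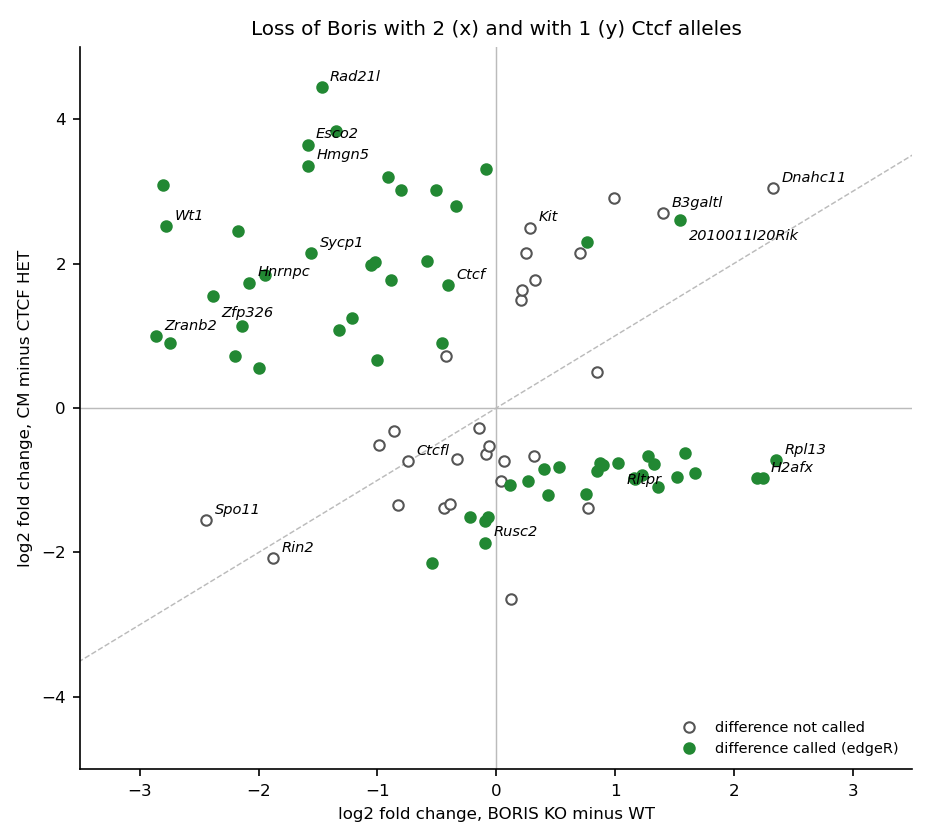
Log2 fold change of 87 genes named here for the loss of *Boris* with 2 *Ctcf* alleles (BORIS KO minus WT, x axis) and with 1 (CM minus CTCF HET, y axis), filled where edgeR called the difference. The dashed line marks equal change. *Spo11* and *Rin2* lie below 0 on both axes, *B3galtl* and *Dnahc11* above 0 on both, and *Zfp326*, *Hnrnpc* and *Zranb2* lie below 0 on the x axis and above 0 on the y axis.

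The same genotypes were also sequenced as whole testis, from unsorted germ cell preparations, with rRNA-depleted RNA on another platform. There edgeR called 1715 of 16531 genes higher (10.4%) and 646 lower (3.91%) in CM. With the replicate number as a block, a pairing that the labels do not state, it called 2705 and 1206. The total of 2361 rested on single libraries, with 0, 8 and 2 genes called without CTCF HET replicate 2, CTCF HET replicate 3 and CM replicate 3. *B3galtl* (mean 1.12 CPM in CTCF HET and 6.30 CPM in CM, 2.51, edgeR adjusted p = 0.0212), *Dnahc11* (3.38, 0.0187) and *Kit* (2.47, 0.0269) were higher in whole testis too, and *Dctn6* (-1.81, 0.0378) and *Gm16387* (-2.98, 0.0227) lower. *Sycp1* (0.31, 0.455) and *Csmd1* (-0.01, 0.979) were not called there, and *Spo11* was not called without the block (-0.72, 0.0751) or, by its fold change, with it. Of the spermatid genes, *Catsper1* (-1.09, 0.0249), *Rfx2* (-1.21, 0.0227), *Actl7a* (-1.54, 0.0216), *Sox30* (-1.19, 0.0253), *Kif17* (-1.21, 0.0259), *Ybx2* (-1.33, 0.0392) and *Tcp11* (-1.15, 0.0298) were called lower in whole testis. The round spermatid list had 9 of 30 called lower in whole testis and 0 higher, with a median of -1.13 against -0.51 in sorted cells, and the spermatogonial list had 6 of 18 higher. Of 30 lipid synthesis genes 10 were called higher in whole testis, among them *Fads1* (2.13, 0.0222), against 1 of 31 in sorted round spermatids. Of the 8 genes that the study singled out, whole testis had 3 called higher, *Kit*, *Fads1* and *Fads2* (2.27, 0.0378). It had 3 called lower, *Prss50* (-2.19, 0.0222), *Gal3st1* (-1.94, 0.0353) and *Mfi2* (-1.44, 0.0237).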

How the data were processed

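RNA was measured in 12 round spermatid libraries, of which 3 CM and 3 CTCF HET entered the main comparison. The authors aligned single-end reads to mm9 with STAR and deposited raw counts per gene symbol for 23284 genes. Counting tool, annotation and use of strand are not given in the sources used here, so overlapping and antisense genes cannot be told apart. Whole testis counts came from TopHat2 and Bowtie2 alignments. For CTCF and BORIS the authors deposited peak positions, summits and a height, a signal of unstated normalization that was not used to compare lists. Replicate ChIP samples stand as 1 list.

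Counts were filtered with filterByExpr (minimum count 10, total 15), scaled by TMM and tested with edgeR 4.0.16 (quasi-likelihood F test, robust) in R 4.3.3, with Benjamini-Hochberg adjustment. DESeq2 gave an adjusted p to 13157 of the 15337 genes and left the rest without one. Standard errors are the log2 fold change over the square root of F. The threshold for a call was a fold change > 2 at adjusted p < 0.05. Alternatives were RLE scaling, DESeq2 1.42.0, no filter, all genotypes in one fit, a replicate block, the thresholds of the study and leaving out each library. After seeing the data, limma 3.58.1 voom with quality weights, DESeq2 without the filter and DESeq2 without each library were added, and list counts without CM replicate 2. The estimates were checked on simulated counts with planted changes. Each gene had the same spread in all simulated libraries, so calls under the wider spread of CM were not checked. In whole testis, libraries with the same number had residual correlations of 0.69, 0.36 and 0.48, and those with different numbers -0.59 to 0.29. The labels do not state a pairing, and the numbers were read as pairing there from these values alone. In round spermatids the same-number correlations were 0.07, 0.15 and 0.25, and the numbers were not read as pairing. No 2 libraries were alike within sampling noise. Depths of 47740650 to 87318776 counts bound counting error only.

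Named genes were *Ctcf*, *Ctcfl* and *Rltpr*, genes named by the study, the 12 per direction with the smallest edgeR p, fold change > 2 and no overlap, the 5 per direction with the smallest p in the contrast, the 6 per direction with the smallest DESeq2 p, and from each of 22 lists the 3 members with the smallest p and the most abundant. Not all of these 117 genes are described, and marker genes without a count or of stem cells were named after their values were seen. The members and lists were chosen with earlier results of these data known. Promoters are 1000 bases each side of annotated mm9 starts, with 21709 symbols matched to 1 gene. H3K4me3 and Pol2 peaks were not used.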

Additional observations from a re-analysis of the deposited data

Results flagged for a closer look

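The loss of *Boris* was compared between the 2 *Ctcf* backgrounds by an edgeR contrast, CM minus CTCF HET against BORIS KO minus WT, and 5113 genes were flagged because this test of the difference itself called them. Among the genes named here 59 were flagged for the same reason, and their values are the difference of the log2 fold changes, above 0 where CM minus CTCF HET was the higher. The fit behind these calls pools the wide spread of the CM libraries with that of the tighter groups.

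The contrast called 17 of 28 spermatocyte genes higher and 1 lower, against 15.7% higher and 15.8% lower of all genes. Of 22 cohesin and CTCF partner genes it called 13 higher and 1 lower (*Mau2*, -2.49). Of 20 spermatogonial genes it called 3 higher and 1 lower. In the order named, these lists had medians of 0.80, 0.57 and 1.51 in CM minus CTCF HET. In BORIS KO minus WT the medians were -0.98, -0.67 and 0.25. Differences above 0 were 3.69 for *Sycp1*, 2.44 for *Sycp3*, 2.53 for *Smc1b*, 5.89 for *Rad21l*, 5.21 for *Esco2*, 5.16 for *Stra8*, 3.02 for *Taf7l* and 2.10 for *Ctcf*. RNA-binding, repair and ribosome assembly genes named here had 3.84 for *Zranb2*, 3.27 for *Hnrnpr*, 3.8 for *Hnrnpc*, 3.92 for *Zfp326*, 3.63 for *Rpf2* and 2.39 for *Fancd2*, and *Snx4* (2.91), *Gopc* (1.66) and *Psmb1* (1.34) were also above 0. The apoptosis and p53 list had 5 of 27 called higher and 4 lower, and of those higher *Trp53inp1* (2.59), *Ccng1* (3.03) and *Apaf1* (3.11) are named here. *Peg10* and *Wt1* were near the floor in BORIS KO, with means of 0.090 and 0.022 CPM, and had -2.80 and -2.78 in BORIS KO minus WT. The imprinted genes *Igf2* (3.77), *Nnat* (4.09) and *Peg10* (5.87 ± 1.75), and *Insig1* (3.38), *Ctsl* (3.8) and *Wt1* (5.28 ± 1.08) were above 0. So were *2010011I20Rik* (1.05), *1110067D22Rik* (3.51), *2810428I15Rik* (2.65), *Gm6455* (1.52), *Hmgn5* (4.92) and *Spock3* (4.6).

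The spermatid lists did not share 1 direction, and members named here with differences below 0 had -2.16 for *Actl7b*, -2.16 for *Tcp11*, -2.46 for *Dkkl1*, -2.15 for *Tnp2*, -3.22 for *H2afx*, -1.73 for *Rfx2*, -1.96 for *Kif17*, -1.65 for *Ybx2*, -1.29 for *Gtsf1l*, -1.26 for *Prss39* and -1.69 for *Prss43*. Genes lower in CM than in CTCF HET with no called difference between BORIS KO and WT were also flagged, at -1.78 for *Rusc2*, -1.30 for *Gm4871*, -1.46 for *Nav2*, -1.48 for *0610040B10Rik*, -1.62 for *Lgals3bp*, -1.65 for *Abhd4*, -1.20 for *Xab2* and -1.36 for *Mfi2*. Housekeeping and other genes below 0 were *Rpl13* (-3.10), *Rpl24* (-1.95), *Psmd3* (-2.12), *Fam108a* (-3.17), *2610301G19Rik* (-2.22), *1700037H04Rik* (-2.59) and *Rltpr* (-1.81). Groups of 3 libraries are too small for a test of single outlying samples.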

How the results depend on the processing

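In CM against CTCF HET round spermatids edgeR called 0 genes with TMM or RLE scaling, without the low-count filter and with a replicate block, and also at an adjusted p < 0.001 or without the fold threshold. DESeq2 called 1276, all 4 genotypes in one fit 1615, and, in alternatives chosen after seeing the data, DESeq2 without the filter 1302 and limma voom with library quality weights 1114. Leaving out each library gave 0 to 2670 with edgeR and with DESeq2 146, 215 and 163 without CTCF HET replicates 1, 2 and 3 and 3703, 606 and 1238 without CM replicates 1, 2 and 3. Calls higher in CM were 1120 of 1276 with DESeq2, 1169 of 1615 with 4 genotypes, 767 of 1114 with voom, 372 of 606 with DESeq2 without CM replicate 2 and 1276 of 2670 without CM replicate 1. The cause was not tested, apart from the fewer libraries in the last. Voom gave the CM libraries weights of 0.102 to 0.636 and the CTCF HET libraries 1.16 to 10.7.

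The difference of the losses of *Boris* had 5113 calls, 5155 with RLE, 5758 with DESeq2, 5106 without the filter, 4881 with the replicate block and 4078 to 7005 without single libraries. Whole testis had 2361 calls, 3283 with DESeq2, 3911 with the replicate block and 0 to 3513 without single libraries.

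Of 87 genes named here 85 kept the sign of their log2 fold change in 19 alternatives. *Ankrd52* ranged from -1.14 to 1.04 without single libraries. It went from 0.50 to -0.56 with the replicate block, -1.14 without CM replicate 2, -2.10 with voom and -1.16 with DESeq2 without CM replicate 2, and *Fads1* from 1.5 to -0.042 and -0.058 without CM replicate 2 in edgeR and DESeq2, with a range of -0.042 to 1.90 without single libraries in edgeR. No named gene crossed the threshold with RLE scaling, without the filter, with the block or without any 1 library other than CM replicate 1 in edgeR, and 46 did with DESeq2. The replicate block, whose numbers were not read as pairing in round spermatids (residual correlations 0.07, 0.15 and 0.25), left the count at 0. Depths ran from 47740650 to 87318776 counts. The shallowest library, CTCF HET replicate 3, had 11 tested genes without a count. CM replicates 2 and 3, at 63503144 and 69195451 counts, had 979 and 1093. The cause of these zeros was not tested.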

Other observations

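*Cx3cr1*, a chemokine receptor gene in the leukocyte list, had 9.39, 6.37 and 7.17 CPM in CTCF HET and 17.5, 3.92 and 16.1 CPM in CM, so CM replicates 1 and 3 were above CTCF HET and CM replicate 2 was below. With all 6 libraries DESeq2 did not call it (adjusted p = 0.324), and without CM replicate 2 its adjusted p was 0.000322. *Akap4*, of the fibrous sheath of the sperm tail, had 335, 283 and 340 CPM in CTCF HET and 299, 229 and 234 CPM in CM, with overlap between the groups (log2 fold change -0.31 ± 0.18). *Prss43*, a testis serine protease gene, had 19.7, 23.1 and 17.8 CPM and 14.3, 9.47 and 11.1 CPM. The imprinted genes *Nnat* (0.322, 0.199 and 0.290 CPM against 0.477, 5.83 and 1.07 CPM) and *Peg10* (0.0495, 0.238 and 0.246 CPM against 1.03, 2.62 and 0.809 CPM) were scarce in CTCF HET and highest in CM replicate 2.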
